A study of Mus musculus with 48 samples.

Results

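The genes described here encode the subunits of mitochondrial oxidative phosphorylation. A gene was a member if its single platform symbol began with Nduf, Uqcr, Cox4, Cox5, Cox6, Cox7, Cox8 or Atp5, or was Sdha, Sdhb, Sdhc, Sdhd or Cyc1. This gave 91 of the 18193 genes measured, with 44 in complex I, 4 in complex II, 9 in complex III, 17 in complex IV and 17 in complex V. The 44 complex I members include 8 Ndufaf genes, whose products help to build the complex and are not part of it. Each gene was followed through 1 probe set, the one with the highest mean over all arrays, and the values are log2 expression. The symbols place Ndufa4 with complex I, although its protein is now regarded as a subunit of complex IV.

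RNA came from the hippocampus of 48 adult C57BL/6J males, and each mouse had an array of its own. Mice given chronic intermittent ethanol (CIE) breathed ethanol vapor at 10 to 13 mg per liter of air for 16 h per day over 4 days and then had 7 days without ethanol, in 4 cycles. They were injected with ethanol (1.6 g/kg) and with pyrazole (1 mmol/kg), an inhibitor of alcohol dehydrogenase, ahead of each cycle. Control (Ctrl) mice breathed air and were injected with saline and the same pyrazole, so both treatments carried pyrazole. The hippocampus was collected 0 h, 8 h, 72 h or 7 d after the final vapor session, and every time had 6 CIE and 6 Ctrl animals. Single labelled mice were the replicates, and different mice were used at each time. The dissected tissue held neurons, glia and vessels together, so fewer cells of a type and less RNA per cell cannot be told apart in any of the values that follow.

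Oxidative phosphorylation couples the flow of electrons to the making of ATP across the inner mitochondrial membrane. Complexes I and II take electrons from NADH and succinate, complex III passes them through cytochrome c to complex IV, which reduces oxygen, and complex V uses the resulting proton gradient to make ATP. A few core subunits of each complex carry the redox centers or the catalytic sites, and many small accessory subunits surround them. Nearly all of these proteins are encoded in the nucleus, and neurons depend heavily on the pathway for ion pumping and synaptic transmission.

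The promoters of Ndufs5, Ndufb10 and Uqcr11 are shown because these 3 members had the smallest adjusted p-values of the 91 at 8 h and were called under every alternative tried. Each sequence is the RefSeq window of 300 bases on build GRCm38.p6, written 5′ to 3′ on the strand of the gene, with 250 bases before the start and 50 after it. Capitals mark CGCANGCG, a core of sites for the nuclear respiratory factor NRF1, CCGGAAG, a site of ETS factors such as GABPA, and GCCATNTT, a site of YY1, each searched on both strands. All of these factors are known regulators of respiratory chain genes. The Ndufs5 window is chr4:123718137-123718436 (minus strand), that of Ndufb10 is chr17:24724374-24724673 (minus strand) and that of Uqcr11 is chr10:80406772-80407071 (minus strand).
Ndufs5: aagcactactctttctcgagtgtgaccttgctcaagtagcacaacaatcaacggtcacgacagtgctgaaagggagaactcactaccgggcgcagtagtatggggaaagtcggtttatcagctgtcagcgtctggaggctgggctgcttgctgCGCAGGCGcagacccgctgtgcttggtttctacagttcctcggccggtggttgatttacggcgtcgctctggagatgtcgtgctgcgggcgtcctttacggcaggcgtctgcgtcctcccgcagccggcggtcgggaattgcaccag
Ndufb10: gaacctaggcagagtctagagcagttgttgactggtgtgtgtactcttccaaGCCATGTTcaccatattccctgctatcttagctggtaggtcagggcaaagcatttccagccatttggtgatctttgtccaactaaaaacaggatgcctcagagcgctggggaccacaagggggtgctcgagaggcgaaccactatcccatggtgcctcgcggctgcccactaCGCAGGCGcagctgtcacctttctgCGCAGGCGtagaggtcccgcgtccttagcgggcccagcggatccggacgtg
Uqcr11: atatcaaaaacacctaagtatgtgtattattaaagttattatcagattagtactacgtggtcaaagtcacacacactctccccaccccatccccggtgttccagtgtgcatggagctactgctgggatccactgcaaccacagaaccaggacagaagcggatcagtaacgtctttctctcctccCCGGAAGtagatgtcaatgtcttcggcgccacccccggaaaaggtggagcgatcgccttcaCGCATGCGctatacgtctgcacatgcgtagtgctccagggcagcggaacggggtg
The Ndufs5 window held 1 NRF1 core, the Ndufb10 window held 2 NRF1 cores and 1 YY1 site, and the Uqcr11 window held 1 NRF1 core and 1 ETS site. Windows were found for 74 of the 91 members, and the first listed window of a gene was used. The NRF1 core occurred in 25 of the 74 (33.8%) and in 2276 of all 27025 gene windows (8.42%). The ETS site occurred in 18 member windows (24.3%) beside 9.12% of all windows, and the YY1 site in 15 (20.3%) beside 6.23%. These are matches of letters and do not show that a factor was bound. At 8 h the median log2 difference between CIE and Ctrl mice was −0.075 for members with the NRF1 core and −0.086 for those without it. It was −0.11 with the ETS site and −0.073 without it, and −0.071 with the YY1 site and −0.086 without it. Whether these medians differ was not tested.

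The first question was whether CIE changed these genes at each harvest. Where a single harvest is described, fell and rose mean lower and higher in CIE than in Ctrl mice, not a change over time. The false discovery rate (FDR) over all probe sets was held at 0.01. At this threshold 5 members were lower in CIE than in Ctrl mice at 8 h and none was higher. They were Ndufs5, Ndufb10 and Ndufa7 of complex I, Uqcr11 of complex III and Atp5e of complex V. These 5 made up 5.49% of the 91 members, where 0.693% of all genes were called lower in this comparison and 2.29% in either direction. No member was called at 0 h, where 1.64% of all genes were, at 72 h (0.0055%) or at 7 d (1.03%). Without adjustment, at a raw p under 0.05, there were 8 members at 0 h (18.6% of all genes), 39 at 8 h (18.4%), 5 at 72 h (7.57%) and, at 7 d, 4 (18.7%). At 8 h 38 of the 39 were lower in CIE mice, which is 41.8% of the members, where 8.91% of all genes were.

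Ndufs5 encodes a small accessory subunit of complex I that faces the intermembrane space. At 8 h its lowest, median and highest values were 11.98, 12.05 and 12.14 in CIE mice and 12.27, 12.32 and 12.37 in Ctrl mice. Every CIE mouse lay below every Ctrl mouse. Ndufs5 fell 1.20-fold, by 0.26 on the log2 scale (SE 0.043, limma adjusted p = 9.99e-05). The labels name no hybridization batch, so 6 sets of arrays, taken here as batches, were inferred from values that arrays shared. Each held 1 CIE and 1 Ctrl mouse of a time, except that 1 Ctrl mouse of 0 h was in no set. Ndufs5 was lower in the CIE mouse in all 6 sets at 8 h, by −0.36 to −0.13.

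Ndufb10 encodes another accessory subunit, in the membrane arm of complex I. Its lowest, median and highest values at 8 h were 11.37, 11.41 and 11.51 in CIE mice and 11.61, 11.64 and 11.67 in Ctrl mice, again with no overlap. It fell by 0.22 on the log2 scale (SE 0.037, limma adjusted p = 0.000136), and the differences within the 6 sets lay between −0.28 and −0.14. Ndufb10 was also the member with the smallest p at 0 h. There its values ran from 11.52 through a median of 11.58 to 11.62 in CIE mice and from 11.61 through 11.73 to 11.82 in Ctrl mice, so that the groups met at their edges. The 0 h difference of −0.14 (SE 0.037) did not pass (limma adjusted p = 0.0164).

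Ndufa7 encodes an accessory subunit of the matrix arm of complex I. At 8 h it was 12.11, 12.20 and 12.23 in CIE mice (lowest, median and highest) and 12.29, 12.41 and 12.49 in Ctrl mice. The groups did not overlap, and the Ctrl mice were spread more widely than the CIE mice. It fell by 0.22 (SE 0.050, limma adjusted p = 0.0036), and the differences within sets lay between −0.33 and −0.068. The platform carried 5 probe sets for this gene, and their mean gave a difference of −0.17 that did not pass (adjusted p = 0.0191). The call was also lost without CIE mouse 21 (adjusted p = 0.0133) or without Ctrl mouse 32 (0.0132), and in a fit to the 12 arrays of 8 h alone (0.0154).

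Uqcr11, a small subunit of complex III, was 12.19, 12.23 and 12.32 in CIE mice at 8 h (lowest, median and highest) and 12.41, 12.46 and 12.56 in Ctrl mice. No CIE mouse reached the lowest Ctrl mouse. It fell by 0.23 (SE 0.043, limma adjusted p = 0.00067), and was lower in CIE mice in all 6 sets, by −0.34 to −0.15. Atp5e, the epsilon subunit in the rotating stalk of ATP synthase, was 11.65, 11.68 and 11.78 in CIE mice and 11.79, 11.92 and 11.95 in Ctrl mice. Its highest CIE mouse and its lowest Ctrl mouse were close to each other. Atp5e fell by 0.21 (SE 0.049, limma adjusted p = 0.00581), but this call was lost when any 1 of 8 of the mice was left out (adjusted p up to 0.0178) and when the hybridization sets entered as a block (adjusted p = 0.0159) or only the 12 arrays of 8 h were fitted (0.0179).

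**Figure D1:**
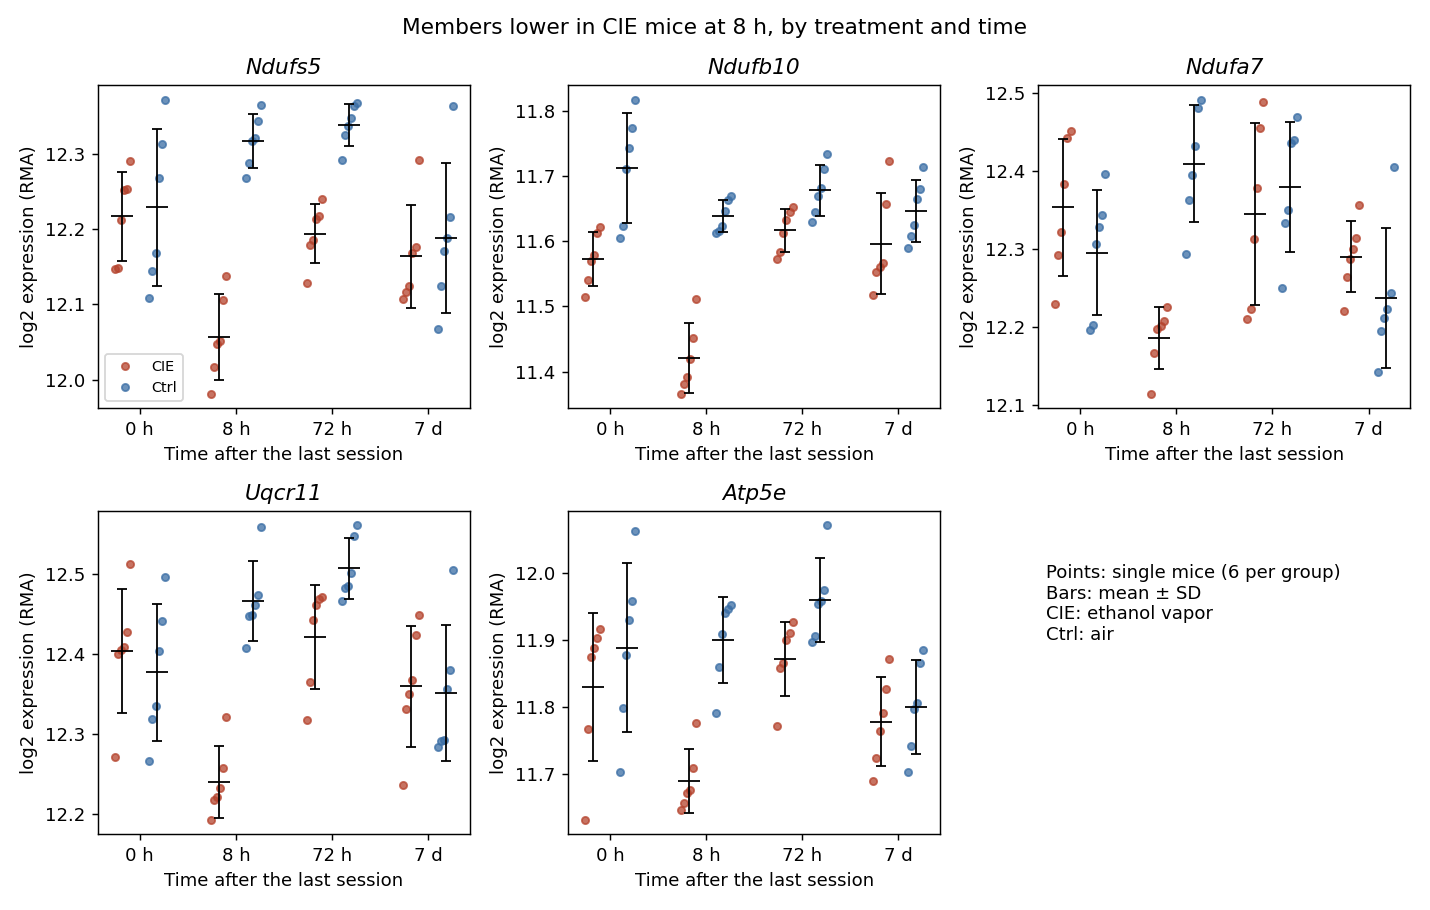
Log2 expression (vertical axes) of the 5 members called at 8 h against the time after the last session, with CIE mice in red at the left and Ctrl mice in blue at the right of each time. Points are single mice, 6 per group, and bars are the mean ± SD. At 8 h every CIE mouse lies below every Ctrl mouse in all 5 panels, and at 7 d the groups overlap in all of them.

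In each of these 5 genes the CIE mice at 8 h had the lowest of the 8 group means. Over all members, the lowest group mean was that of CIE mice at 8 h in 36 genes, of Ctrl mice at 7 d in 25 and of another group in the rest. The highest group mean was that of Ctrl mice at 72 h in 30 genes and of Ctrl mice at 8 h in 22. The same counts were not made over all genes, so they are not read as traits of the members. In Ctrl mice the median change at 72 h minus 0 h was 0.042 over the members and 0.052 over all genes. At 8 h minus 0 h it was 0.038 and 0.050. The range of the group means was 0.29 for Ndufb10 and 0.28 for Ndufs5, where the median SD within a group was 0.044 and 0.058. It was wider in some members of low signal, at 0.82 for Cox7a1 and 0.53 for Cox7b2, where that SD was 0.31 and 0.28.

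The members just short of the threshold at 8 h ran the same way. Cox6b1, a subunit of complex IV that faces the intermembrane space, was 13.19, 13.24 and 13.26 in CIE mice (lowest, median and highest) and 13.30, 13.36 and 13.39 in Ctrl mice. The groups did not overlap, and the difference of −0.12 (SE 0.031) missed the threshold by little (limma adjusted p = 0.0103). Atp5l, subunit g of the membrane part of ATP synthase, had a difference of −0.15 (SE 0.039, adjusted p = 0.0178), and its groups did not overlap either. Cox7c, a small membrane subunit of complex IV, had a difference of −0.31 (SE 0.082, adjusted p = 0.0181) with overlapping groups, at 7.85 to 8.13 in CIE mice and 7.93 to 8.45 in Ctrl mice. In all, 14 members (15.4%) were lower at an FDR of 0.05 and none was higher, where 2.25% of all genes were lower at that threshold and 5.35% passed it in either direction.

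Across all 91 members, 74 had lower means in CIE mice at 8 h and 17 had higher ones. The median log2 difference was −0.071, beside 0.0057 for all genes, of which 48% were lower. In 15 members (16.5%) every CIE mouse lay below every Ctrl mouse, where 1.75% of all genes had this pattern. These were the 5 called genes with Ndufa1, Ndufa5, Ndufa13, Ndufb2, Ndufb3 and Ndufc1 of complex I, Cox6b1 and Cox8a of complex IV, and Atp5j2 and Atp5l of complex V. No member had every CIE mouse above every Ctrl mouse at 8 h, where 1.87% of all genes did. Whether genes as bright as the members separate as often was not tested. The median within each hybridization set was below 0 in 6 of 6 sets, and lay between −0.11 and −0.0061.

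**Figure D2:**
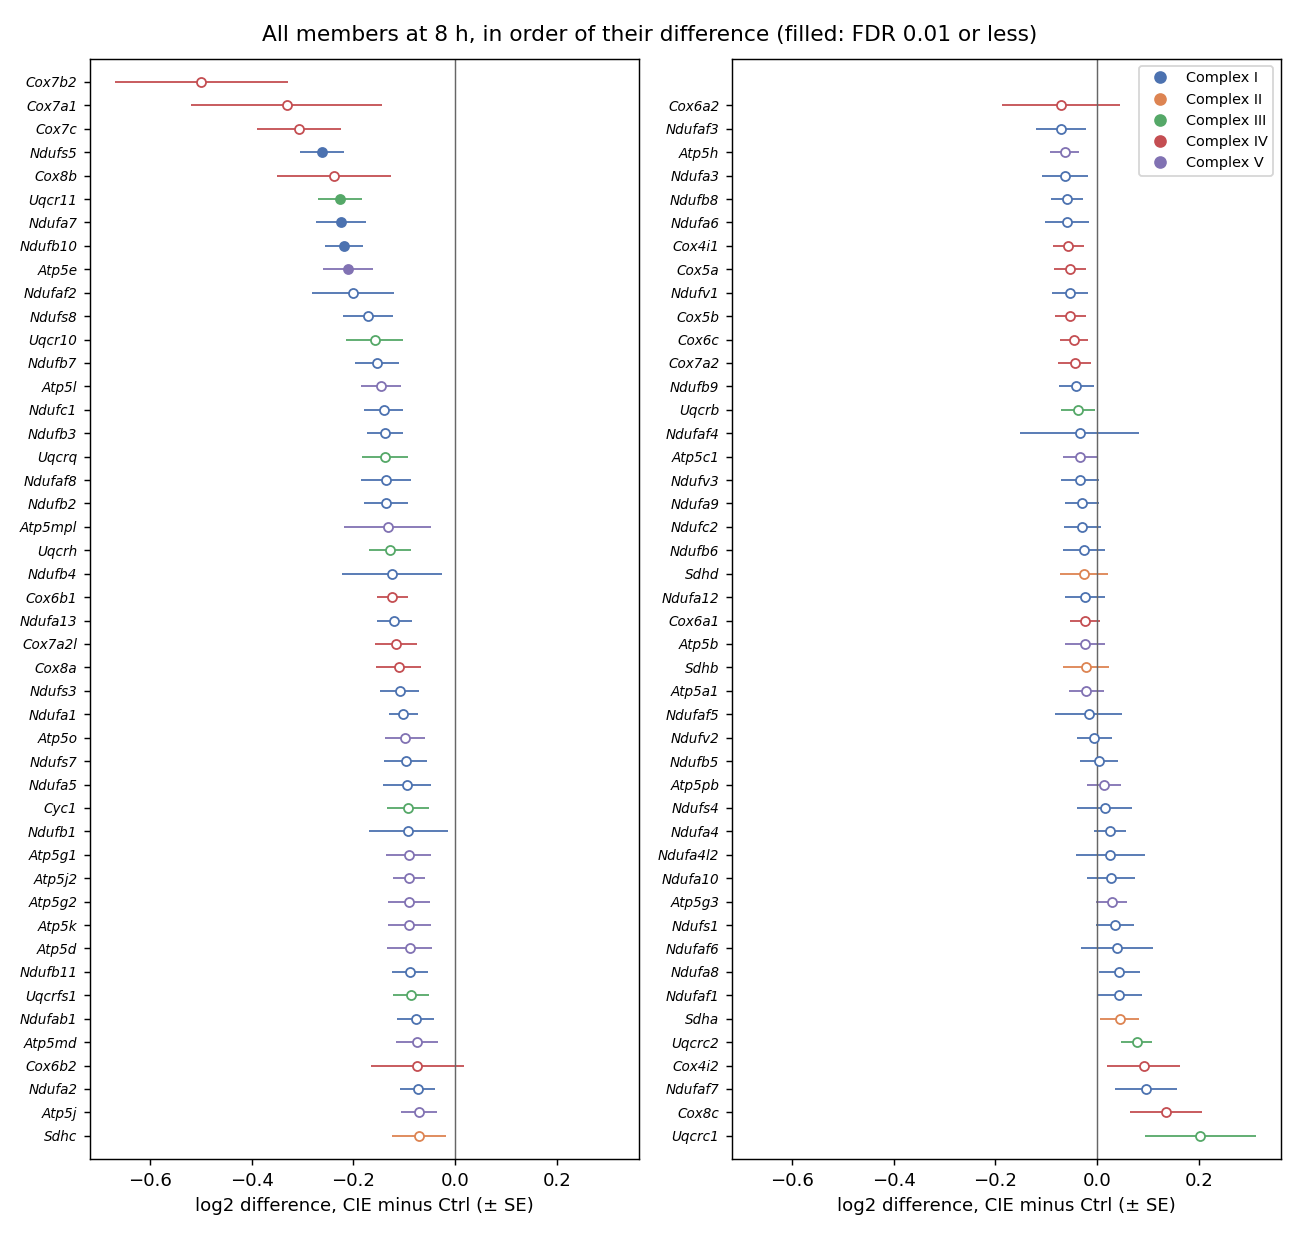
Log2 difference, CIE minus Ctrl, at 8 h (horizontal axis) for each of the 91 members, in order from the lowest at the upper left to the highest at the lower right. Bars are ± 1 SE of the limma fit, colors give the complex and filled points passed an FDR of 0.01. Of the 91 points, 74 lie left of 0, and the 5 filled ones lie between −0.26 and −0.21.

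By complex, the medians at 8 h were −0.061 in complex I (34 of 44 lower), −0.024 in complex II (3 of 4), −0.093 in complex III (7 of 9), −0.071 in complex IV (15 of 17) and −0.089 in complex V (15 of 17). Complex II had the median closest to 0, from 4 genes. Within complex I, the 6 measured core subunits of the matrix arm, most of which hold the flavin or iron-sulfur clusters, had a median of −0.075 (5 of 6 lower). The 30 other members apart from the assembly factors, counted here as accessory subunits, had a median of −0.068 (24 of 30 lower). By symbol they include Ndufa4 and its paralog Ndufa4l2. The 8 assembly factors had a median of −0.025 (5 of 8 lower, 0 called). Whether these medians differ between complexes or classes was not tested.

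The called members of complex I were all accessory subunits. Among the core subunits, Ndufs8, which carries iron-sulfur clusters, had the lowest difference at −0.17 (SE 0.049, limma adjusted p = 0.0306). Ndufs1, the large subunit of the electron input part, had a difference of 0.035 (SE 0.038, adjusted p = 0.694) and did not pass. Of the accessory subunits, Ndufa12 and Ndufb4, which had the highest and the lowest mean signal among the complex I probe sets, had differences of −0.024 (SE 0.039, adjusted p = 0.819) and −0.12 (SE 0.099, 0.564).

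Complex II is also an enzyme of the citric acid cycle. At 8 h the flavoprotein gene Sdha had a difference of 0.045 (SE 0.039, limma adjusted p = 0.606) and the iron-sulfur gene Sdhb one of −0.022 (SE 0.045, 0.860). The membrane anchor genes Sdhc and Sdhd had differences of −0.071 (SE 0.053, 0.525) and −0.025 (SE 0.048, 0.848). None of the 4 passed at any time.

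In complex III the small subunits Uqcr11, Uqcr10, Uqcrq and Uqcrh had differences of −0.23, −0.16, −0.14 and −0.13 at 8 h, of which only that of Uqcr11 passed. A further small subunit, Uqcrb, had a difference of −0.037 (SE 0.034, limma adjusted p = 0.631). Both large core proteins had positive differences. Uqcrc2 had a difference of 0.078 (SE 0.030, limma adjusted p = 0.132), and Uqcrc1 had one of 0.20 (SE 0.11, adjusted p = 0.328), with values of 11.24, 11.73 and 11.89 in CIE mice (lowest, median and highest) and 11.17, 11.49 and 11.70 in Ctrl mice. These groups overlapped widely, neither gene passed, and no difference between small and large subunits was tested. The electron-carrying subunits Cyc1 and Uqcrfs1 had differences of −0.093 and −0.086, which did not pass.

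In complex V the proton-driven ring is built of c subunits, for which 3 genes encode the same mature protein. At 8 h Atp5g1 had a difference of −0.091 (SE 0.044), Atp5g2 one of −0.090 (SE 0.041) and Atp5g3 one of 0.029 (SE 0.030), with adjusted p-values of 0.266, 0.233 and 0.688 by limma, so none passed. The catalytic head genes Atp5a1 and Atp5b had differences of −0.021 and −0.023 and did not pass.

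Several complex IV subunits have a form used mainly in other tissues. At 8 h the widely expressed Cox4i1, Cox6a1, Cox7a2 and Cox8a had differences of −0.056, −0.023, −0.044 and −0.11. Their counterparts Cox4i2, Cox6a2, Cox7a1 and Cox8b, the last 3 known from heart and skeletal muscle, had differences of 0.092, −0.071, −0.33 and −0.24. None of the 8 passed. Cox7a1 varied widely between mice, with values of 5.60 to 6.50 in CIE mice and 5.78 to 6.78 in Ctrl mice at 8 h. Ndufa4 and its paralog Ndufa4l2 both had a difference of 0.026 at 8 h.

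**Figure D3:**
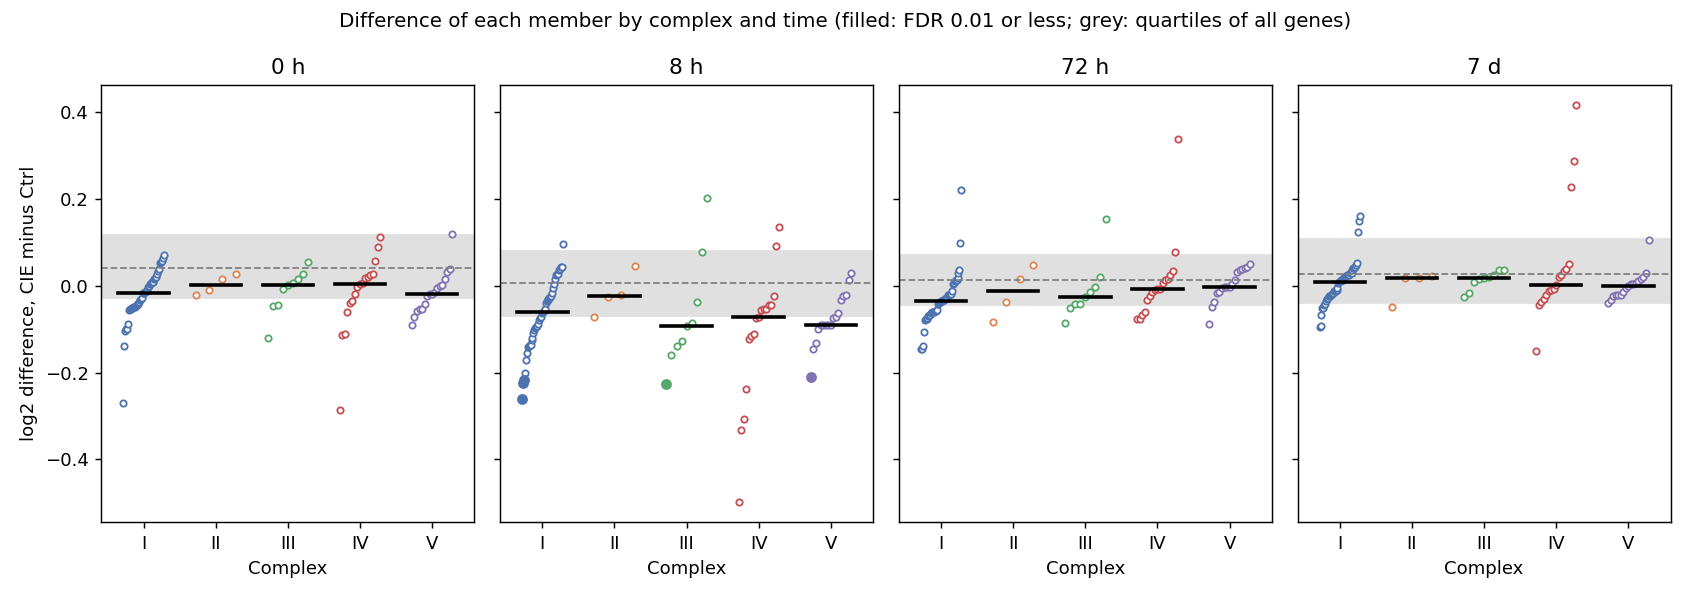
Log2 difference, CIE minus Ctrl (vertical axis), of each member by complex (horizontal axis) at 0 h, 8 h, 72 h and 7 d. Filled points passed an FDR of 0.01, black lines are the medians of each complex, and the grey band and dashed line are the quartiles and the median of all 18193 genes. The medians of complexes III, IV and V at 8 h, at −0.093, −0.071 and −0.089, lie below the lower quartile of all genes (−0.070).

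At 0 h, immediately after the last session, 54 of the 91 members had lower means in CIE mice, and the median difference was −0.012, beside 0.041 for all genes. Besides Ndufb10, the smallest p was that of Atp5h, subunit d of the peripheral stalk of ATP synthase. It was 12.98, 13.03 and 13.06 in CIE mice (lowest, median and highest) and 13.06, 13.13 and 13.16 in Ctrl mice. The groups barely overlapped. The difference of −0.090 (SE 0.029, limma adjusted p = 0.0498) and that of Ndufb10 were the 2 that passed an FDR of 0.05 at 0 h, where 5.16% of all genes passed it. Cox8a differed by 0.089 (SE 0.044, adjusted p = 0.249) and Ndufs7, a core subunit of complex I, by −0.10 (SE 0.042, adjusted p = 0.158). Atp5pb, subunit b of the peripheral stalk, differed by −0.072 (SE 0.033, adjusted p = 0.209), and neither these nor any other member was called. In no member did the groups fail to overlap at 0 h, where 0.346% of all genes had every CIE mouse below every Ctrl mouse.

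At 72 h, 62 of the 91 members had lower means in CIE mice, with a median of −0.021 beside 0.013 for all genes. Ndufs5 again had every CIE mouse below every Ctrl mouse, at 12.13, 12.20 and 12.24 in CIE mice (lowest, median and highest) and 12.29, 12.34 and 12.37 in Ctrl mice. Its difference of −0.15 (SE 0.043) did not pass over all probe sets (limma adjusted p = 0.184). Ndufb11, a membrane arm subunit, was the only other member without overlap, with a difference of −0.075 (SE 0.035, adjusted p = 0.491). These 2 members were 2.2% of the 91, where 0.451% of all genes had this pattern. Ndufb4, a membrane arm subunit, had a positive difference of 0.22 (SE 0.099, limma adjusted p = 0.471) with overlapping groups.

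At 7 d, 39 of the 91 members had lower means in CIE mice and the median was 0.0084, beside 0.028 for all genes. The smallest p belonged to Cox7b2, a paralog of Cox7b. It was 5.33, 5.90 and 6.34 in CIE mice (lowest, median and highest) and 5.13, 5.47 and 5.70 in Ctrl mice. The difference of 0.42 (SE 0.17) did not pass (limma adjusted p = 0.139). At 8 h the same gene had a difference of −0.50 (SE 0.17, adjusted p = 0.0774). The other members with the smallest p-values of their complexes at 7 d had both signs, and none passed. Cox8c, another paralog in complex IV, had a difference of −0.15 (SE 0.070, adjusted p = 0.212), Ndufb1 of the complex I membrane arm one of 0.16 (SE 0.077, 0.229) and the accessory subunit Ndufa2 one of −0.068 (SE 0.035, 0.265). Uqcrb had one of 0.037 (SE 0.034, 0.602) and Atp5mpl, a small subunit of complex V, one of 0.10 (SE 0.086, 0.544). Within the hybridization sets the median over members at 7 d lay between −0.11 and 0.089, and its sign differed between sets. In no member did the 7 d groups lie apart with CIE lower, where 0.214% of all genes did.

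The mean over the genes of a complex was also taken in each mouse. For complex IV at 8 h these means lay between 10.01 and 10.11 in CIE mice and between 10.14 and 10.28 in Ctrl mice, and for complex V between 12.57 and 12.63 in CIE mice and between 12.64 and 12.71 in Ctrl mice. In both complexes the CIE mouse was the lower one in 36 of 36 CIE-to-Ctrl pairings. The count was 34 of 36 in complex I, 29 of 36 in complex III and 19 of 36 in complex II. In complex I the CIE mouse was also the lower one in 26 of 36 pairings at 0 h and 30 of 36 at 72 h, and in 14 of 36 at 7 d. In complex IV these counts were 22 at 0 h, 16 at 72 h and 11 at 7 d, and in complex V they were 22, 15 and 18. Complexes II and III had between 15 and 23 of 36 at these 3 times. These counts describe the mice and carry no test, since the members were known when they were made. Every gene counted equally in these means. In complex IV the lowest differences at 8 h were those of Cox7b2 (−0.50), Cox7a1 (−0.33), Cox7c (−0.31) and Cox8b (−0.24). Their mean signals were 5.62, 6.27, 8.20 and 5.79, where Cox6a1, the brightest, had 14.04 and a difference of −0.023. Cox4i2 and Cox8c, also of low signal (5.36 and 7.48), had positive differences of 0.092 and 0.14. Whether complex IV separates without the genes of low signal was not tested.

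**Figure D4:**
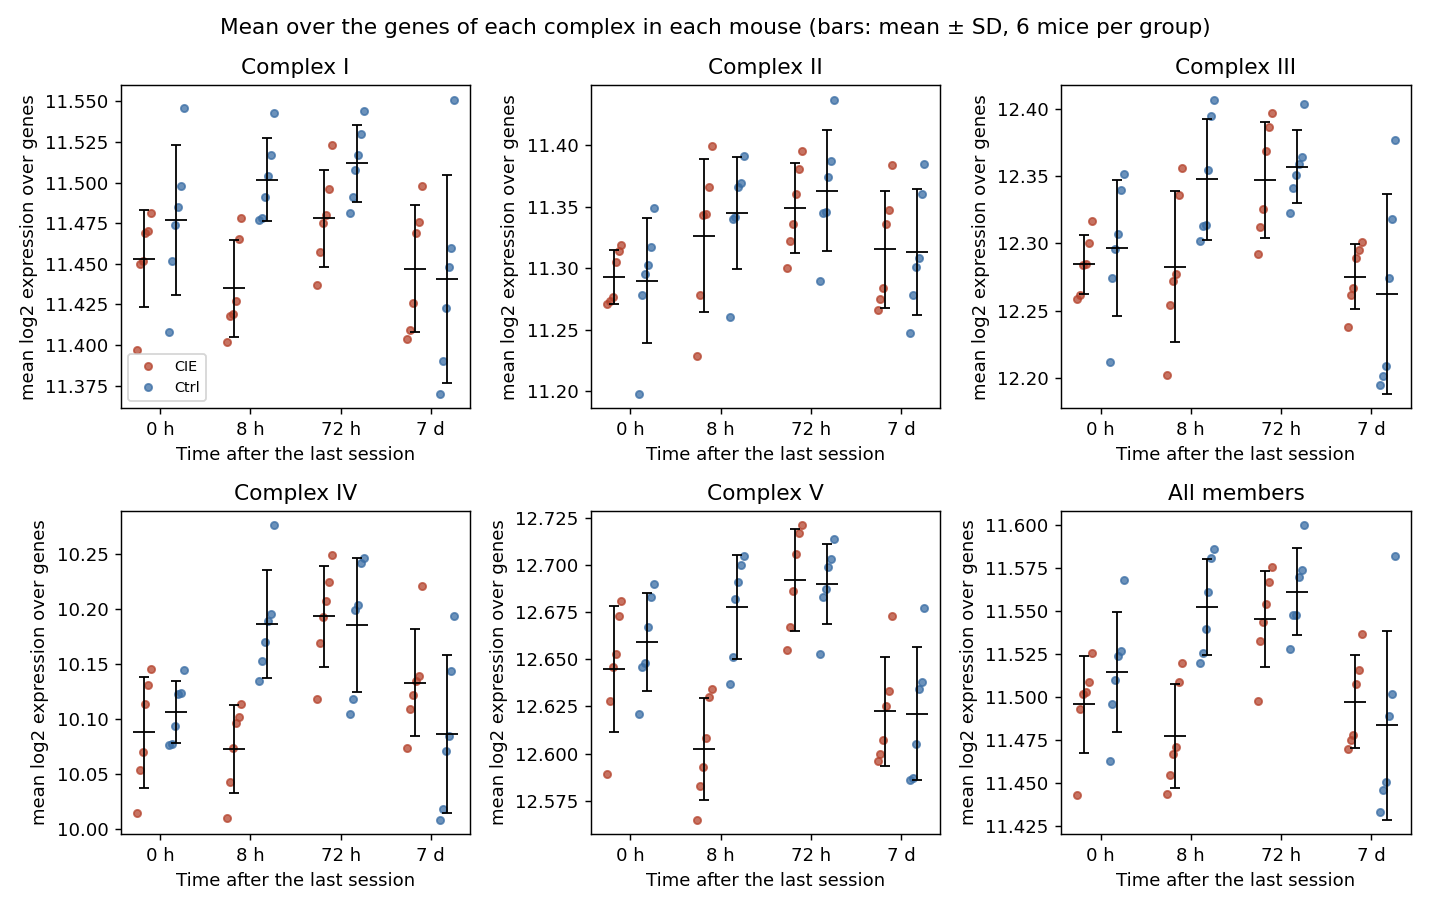
Mean log2 expression over the genes of each complex, and over all 91 members, in each mouse (vertical axes) against the time after the last session, with CIE in red at the left and Ctrl in blue at the right. Points are single mice, 6 per group, and bars are the mean ± SD. Every gene of a complex counts equally, also those of low signal. At 8 h the CIE mice of complexes IV and V lie below all Ctrl mice (10.01 to 10.11 beside 10.14 to 10.28, and 12.57 to 12.63 beside 12.64 to 12.71).

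The next question was whether the CIE effect itself differed between times, which was tested as an interaction. No member passed at an FDR of 0.01 in any of the 6 pairs of times, where 0.033% of all genes did for 8 h minus 0 h, 0.0275% for 72 h minus 0 h, 0.066% for 7 d minus 0 h, 0.011% for 72 h minus 8 h, 0.0715% for 7 d minus 8 h and 0% for 7 d minus 72 h. The CIE effect at 8 h minus that at 0 h was −0.25 in Uqcr11 (SE 0.061, limma adjusted p = 0.048) and −0.25 in Ndufs5 (SE 0.061, 0.0499), the only members to pass an FDR of 0.05, as 0.478% of all genes did. In Ndufa7 it was −0.28 (SE 0.070, adjusted p = 0.0536), and in Ndufb10 −0.079 (SE 0.052, adjusted p = 0.587). At a raw p under 0.05 this comparison gave 16 members (17.6%), where 12.2% of all genes were found. A fall at 8 h and none at 0 h is therefore not shown to be a difference between the times at the threshold used. The limma F test on the 4 CIE effects together called Ndufa7, Ndufb10, Ndufs5 and Uqcr11, which is 4.4% of the members, where 6.23% of all genes were called, and 11 members at an FDR of 0.05 (13.4% of all genes).

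Times were also compared within each treatment, always against the same 0 h mice of that treatment. In CIE mice at 8 h minus CIE mice at 0 h, Ndufb10 fell by 0.15 (SE 0.037, limma adjusted p = 0.00637) and Atp5g2 fell by 0.17 (SE 0.041, 0.00779), where 2.95% of all genes were called. Neither call held with the hybridization sets as a block. Ndufs5 had a change of −0.16 in CIE mice (adjusted p = 0.0148) and of 0.088 in Ctrl mice (0.245) over the same interval, and Uqcr11 one of −0.16 (0.0129) and of 0.090 (0.238), none of which passed. Over all members, the median change over these 8 h was −0.019 in CIE mice and 0.038 in Ctrl mice, while that of all genes was 0.015 in CIE mice and 0.050 in Ctrl mice. Ctrl mice at 7 d minus Ctrl mice at 0 h had 68 of 91 members lower, with a median of −0.039 beside 0.0094 for all genes, and 0 members called, where 0.264% of all genes were. The same interval in CIE mice had 53 of 91 lower and a median of −0.0050. At 72 h minus 0 h in CIE mice, the muscle form Cox7a1 had a change of 0.78 (SE 0.19, adjusted p = 0.0115), the highest of any member in that comparison, and it did not pass. At an FDR of 0.05 the members that passed numbered 8 in CIE mice at 8 h minus 0 h (7.61% of all genes) and 2 in CIE mice at 72 h minus 0 h (3.58%), and 2 and 1 in Ctrl mice over the same intervals (3.09% and 2.6%).

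Other genes of mitochondria and energy use were examined as lists at 8 h. The 37 measured assembly and accessory factors of oxidative phosphorylation, which include the 8 Ndufaf members, had a median of −0.025 with 21 lower and 0 called. Regulators of mitochondrial biogenesis had a median of −0.077, with 13 of 16 lower. In that list Polrmt, the mitochondrial RNA polymerase, fell by 0.30 (SE 0.049, limma adjusted p = 0.000106), at 9.25 in CIE mice and 9.55 in Ctrl mice on average. Gabpb1, a partner of the ETS factor GABPA, rose by 0.30 (SE 0.062, adjusted p = 0.00169), at 6.94 in CIE mice and 6.65 in Ctrl mice. Mitochondrial ribosomal proteins had a median of −0.056, with 57 of 76 lower, and Mrpl24 of the large subunit fell by 0.14 (SE 0.034, adjusted p = 0.00815).

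The remaining lists of energy use had medians nearer to 0 than that of the members. Pyruvate dehydrogenase and the citric acid cycle had a median of 0.0011 (8 of 16 lower, 0 called), glycolysis −0.011 (11 of 16 lower, 0 called), and mitochondrial carriers, porins and creatine kinases −0.0084 (7 of 13 lower, 0 called). Electron carriers and coenzyme Q synthesis had a median of −0.020 (9 of 15 lower), and Coq10b, a coenzyme Q binding protein, rose by 0.38 (SE 0.080, limma adjusted p = 0.00193). Among lists outside energy use, cytosolic ribosomal proteins had a median of −0.038. Of these, 39 of 46 were lower with 0 called, beside 74 of 91 members lower. Proteasome subunits had a median of −0.0039 (21 of 39 lower), with Psmb2, Psmb8, Psmb9 and Psmd2 higher in CIE mice. Of the 13 subunits encoded by mitochondrial DNA, 1 was measured by a probe set with a single symbol. This was ND5, of complex I, with a difference of 0.087 (SE 0.046, adjusted p = 0.325). At the other times single genes of these lists were called. At 0 h these were Coq7, of coenzyme Q synthesis, which fell by 0.22 (SE 0.048, adjusted p = 0.00345), Mrpl21 and Mrps28, which fell by 0.20 each, and Psmb9, which rose by 0.91. At 7 d Slc25a27, a mitochondrial carrier, fell by 0.78 (SE 0.16, adjusted p = 0.00359).

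**Figure D5:**
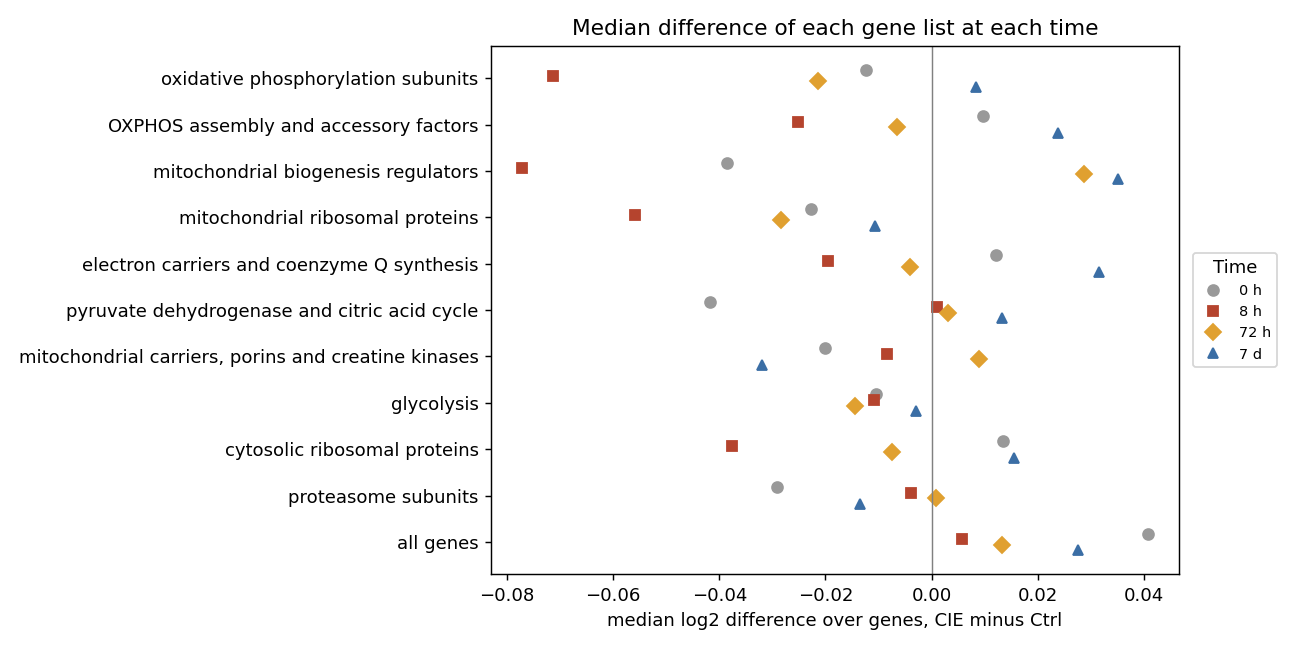
Median log2 difference over genes, CIE minus Ctrl (horizontal axis), of the 91 members, of 9 other gene lists and of all genes, with 1 marker for each time. At 8 h the medians of the members (−0.071), of the biogenesis regulators (−0.077) and of the mitochondrial ribosomal proteins (−0.056) lie left of the others, and that of all genes is 0.0057.

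Markers of the cell types in the tissue were compared at 8 h beside these results. Of 12 neuron markers 8 had higher means in CIE mice and 0 were called, with a median of 0.056, and the list mean per mouse lay between 11.84 and 11.92 in CIE mice and between 11.73 and 11.92 in Ctrl mice. Oligodendrocyte markers had a median of 0.16 with 9 of 10 higher and 0 called, at 10.41 to 10.80 in CIE mice and 10.20 to 10.74 in Ctrl mice. Astrocyte markers had a median of −0.036 (5 of 9 lower, at 11.00 to 11.26 in CIE mice and 11.12 to 11.29 in Ctrl mice), with Slc1a2, the main glutamate transporter of astrocytes, higher by 0.20 (SE 0.046, limma adjusted p = 0.00545). Microglia markers had a median of 0.072 (7 of 9 higher, 0 called, at 9.20 to 9.55 in CIE mice and 9.18 to 9.40 in Ctrl mice), and endothelial and mural markers one of −0.029 (5 of 9 lower, 0 called, at 8.66 to 8.90 in CIE mice and 8.69 to 9.01 in Ctrl mice). Among the blood markers Ptprc rose by 0.63 (SE 0.11, adjusted p = 0.000125), with 3 of 5 higher, and choroid plexus and muscle markers had medians of 0.037 (4 of 7 higher) and −0.034 (6 of 10 lower) with 0 called. The part of these markers in the result for the members was not tested.

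For 51 of the 91 genes the platform carried further probe sets that the rule did not use. At 8 h, 74 of the 89 other probe sets with a single member symbol were lower in CIE mice, and 67 had the sign of the chosen one. Of these, 3 were called lower, for Atp5g1, Atp5k and Ndufab1. A further 10 probe sets carried a member's symbol among several, and of these 8 were lower with 1 called lower. One of these, shared by Ndufs5 and a pseudogene of it, had a difference of −0.11 (SE 0.040, limma adjusted p = 0.111), which is smaller than the −0.26 of the probe set for Ndufs5 alone. At 0 h 3 other probe sets were called lower, for Atp5g1, Cox5a and Ndufab1, whose chosen probe sets were not called. Over all 45037 probe sets, 967 were called at 8 h and 865 at 0 h in either direction. Whether the other probe sets of the members exceed that share was not tested. Of the 91 chosen probe sets 21 were of the _s_at or _x_at type, whose probes can match related transcripts.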

How the data were processed

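RNA was hybridized to Affymetrix mouse genome arrays. The deposited values are log2 expression made by the authors with RMA (background correction and quantile normalization within each hybridization batch), a further quantile normalization of all arrays, and ComBat to remove the batch, with tool versions not given in the sources used here. Such a correction can also alter differences that run with a batch. Precision is limited by how many arrays there were. Array medians lay between 6.60 and 6.63 and array correlations between 0.974 and 0.998. Symbols came from the platform annotation (34945 of 45037 probe sets had 1), and all 91 members matched a RefSeq gene by ID with the same symbol.

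One limma model (3.58.1, R 4.3.3, lmFit and eBayes) took a mean per group over 48 arrays. P-values were two-sided and Benjamini-Hochberg adjusted within each comparison across every probe set, and called at an FDR of 0.01 or less. Counts over all genes used 1 probe set per gene. The script was tested on simulated data. Hybridization sets were recovered from the values: arrays with at least 5 values equal within 1e-08 were joined, which placed 47 arrays in 6 sets, and Ctrl mouse 2 at 0 h lay in none. Promoters were searched with 3 motifs, chosen after sequences had been seen.

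The members and lists were chosen with earlier results of these data known. Named members are those called in any CIE minus Ctrl comparison or interaction, the 2 of smallest p per complex and time, the highest and lowest mean per complex, the tissue isoforms and c-subunit genes, and up to 3 called genes per other list. Others named were chosen after their values were seen. Alternatives were a set block, the 12 arrays of a time, single mice left out, a dim filter, requantiling, centering, eBayes with trend, other probe set choices and an FDR of 0.05.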

Additional observations from a re-analysis of the deposited data

Results flagged for a closer look

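In 13 of 384 groups of 6 mice tested (3.39%), 1 mouse stood far from the other 5 by Dixon's criterion, which chance alone meets in about 1 group in 20. Among complex I genes, Ndufs5 was 12.29 in CIE mouse 7 at 7 d, with the others at 12.11 to 12.18, and Ndufs7 was 12.02 in Ctrl mouse 79 at 8 h, with the others at 12.09 to 12.11. The mean over complex I was 11.40 in CIE mouse 11 at 0 h and 11.45 to 11.48 in the others. CIE mouse 7 at 7 d was also apart in Uqcrc1, at 11.04 beside 11.43 to 11.64. Ctrl mouse 6 at 72 h was the lowest in 3 genes, with Uqcrc1 at 11.16 (others 11.45 to 11.60), Sdha at 12.07 (12.16 to 12.20) and Atp5a1 at 13.13 (13.22 to 13.26). In complex V, Atp5l was 12.79 in CIE mouse 21 at 8 h (others 12.89 to 12.91), Atp5g3 was 13.21 in CIE mouse 71 at 72 h (13.18 to 13.19), Atp5mpl was 12.04 in Ctrl mouse 2 at 0 h (12.32 to 12.45) and Atp5a1 was 13.18 in Ctrl mouse 18 at 7 d (13.22 to 13.24). In complex IV, Cox6a1 was 13.98 in Ctrl mouse 22 at 7 d (14.04 to 14.07) and Cox6a2 was 8.46 in Ctrl mouse 38 at 0 h (7.67 to 7.91).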

How the results depend on the processing

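The counts of called members and the medians stayed within 1.5 times the value given, or within the spread between mice, in 81 recomputations and not in 13, which follow. At an FDR of 0.05 the counts were 2 at 0 h, 14 at 8 h, 2 for the CIE effect at 8 h minus 0 h, 8 for CIE mice at 8 h minus 0 h, 2 for CIE mice at 72 h minus 0 h, 2 and 1 for Ctrl mice at 8 h and 72 h minus 0 h, and 11 by the F test. With the inferred sets as a block CIE mice at 8 h minus 0 h had 0 in place of 2, and 4 members stayed called at 8 h. With only the 12 arrays of the time 3 were called at 8 h, without Ndufa7 and Atp5e, and with eBayes trend and robust 11 at 8 h and 1 at 0 h. The mean of all probe sets gave 1 at 0 h. The cause was not tested. Calls over all probe sets also move with the setting, at 8 h from 967 as reported to 666 with the sets as a block. The counts here are therefore not read as results about the members alone. Leaving out single mice gave 3 to 6 members at 8 h (3 without CIE mouse 21 or Ctrl mouse 32), 0 to 1 at 0 h (1 without Ctrl mouse 12 or 20), and 0 to 0 at 72 h and at 7 d. The medians then ran from −0.082 to −0.063 at 8 h, −0.022 to −0.00084 at 0 h, −0.028 to −0.017 at 72 h and −0.0039 to 0.023 at 7 d. Ndufb10, Ndufs5 and Uqcr11 stayed called at 8 h in all 8 other settings and without any 1 of 13 mice, Ctrl mouse 2 of 0 h among them. From the labels, no paired analysis was possible because each mouse number occurs once in them, and mice were matched only through the inferred sets.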
